A study of Sus scrofa with 18 samples.

Results

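The 7 subunits of respiratory complex I that are encoded in mitochondrial DNA, ND1, ND2, ND3, ND4, ND4L, ND5 and ND6, were followed in the adipose transcriptome of young pigs. The 7 rows were taken by symbol from a count table of 29884 genes, and all 7 were found. They were selected on measured values: earlier results of these data had shown ND6 higher in subcutaneous than in visceral fat at 3 months. That contrast is therefore given below as a description, and tests are kept to the other ages and comparisons.

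The study sampled subcutaneous fat of the back (SAF) and visceral fat next to the kidney (VAF) from 9 male Bama pigs, a Chinese miniature breed, sired by 1 boar and untreated apart from a fast before sampling. Pigs were 1, 3 and 6 months old, and each of the 6 groups of depot and age had 3 RNA-seq libraries, named here by depot, age and replicate (SAF1-1 is the first SAF library of 1 month). The 18 libraries held between 16404239 and 22857354 counts. The labels do not say that the same replicate number in SAF and VAF means the same pig, so p-values measure the spread between libraries only.

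Several facts about the libraries touch the results. VAF6-3, which the study left out of its comparisons, is given with the other values and left out of the tests, so VAF at 6 months rests on 2 libraries. For 4 VAF libraries of 3 and 6 months the labels disagree. For VAF6-1 and VAF3-3 they disagree on the age, and for VAF6-2 and VAF6-3 on the replicate number only. The library names given with the counts were followed. From the study's read filtering the libraries fall into a set in which many reads were removed for unread bases, made of 8 SAF libraries, and a set in which few were removed, made of the 9 VAF libraries and SAF6-3. At 1 and 3 months this split and the depot are the same split, so sequencing set and depot cannot be told apart there. All 8 adipocyte markers had counts in every library, with a summed level between 4970 and 17709 TMM-scaled CPM. CPM is the share of a gene in the counts of a library scaled to 1000000, and TMM is the scaling of edgeR between libraries. In this bulk tissue fewer cells of a type and less RNA per cell cannot be told apart.

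Complex I is the entry point of the respiratory chain. It takes electrons from NADH, passes them to ubiquinone and pumps protons across the inner mitochondrial membrane. The mitochondrially encoded subunits form the core of its membrane arm, while the remaining core subunits and all accessory subunits come from nuclear genes and are imported. In white fat the chain works at a modest rate beside lipid storage and supplies energy for lipogenesis and lipolysis. Mitochondrial DNA is transcribed from both strands as long precursors that are then cut at tRNAs, so the levels of single mRNAs depend on processing and decay as well as on transcription.

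ND6 stands apart from the other 6 in the genome. Of the 13 protein genes of the pig mitochondrial genome (16613 bases, RefSeq annotation of Sscrofa11.1), 12 lie on the plus strand and ND6 alone lies on the minus strand. ND6 is a single coding stretch of 528 bases at MT:14739-15266. Its last 17 bases, 3.22% of its length, lie under the end of ND5 (MT:12935-14755, plus strand), which leaves 511 bases to ND6 alone. The other members are ND1 at MT:3922-4876, ND2 at MT:5087-6128, ND3 at MT:10653-10998, ND4L at MT:11069-11365 and ND4 at MT:11359-12736. ND4L and ND4 share 7 bases on the same strand, and in mammals both are read from a single mRNA.

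The junctions of both overlapping pairs are shown on the plus strand because reads over them fit both genes of a pair, with the shared bases in capitals. The ND5 and ND6 junction spans MT:14709-14785 and that of ND4L and ND4 spans MT:11329-11395.
ND5/ND6: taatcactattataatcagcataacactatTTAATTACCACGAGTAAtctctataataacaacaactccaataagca
ND4L/ND4: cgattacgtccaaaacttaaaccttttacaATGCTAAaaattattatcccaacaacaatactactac
The overlap letters end the reading frame of ND5 and, on the opposite strand, that of ND6, while the ND4L and ND4 overlap opens the frame of ND4.

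The difference in strand shows in the letters. The first 60 bases of ND6 (MT:15207-15266, minus strand) and of ND5 (MT:12935-12994, plus strand) are given 5′ to 3′ in the sense of each mRNA, with the first codon in capitals.
ND6: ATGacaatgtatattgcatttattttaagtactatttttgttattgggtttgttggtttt
ND5: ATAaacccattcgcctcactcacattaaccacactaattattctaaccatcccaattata
Over its whole length ND6 had 27.1% G and 7.20% C. The other 6 members had between 9.60% and 12.8% G and between 24.9% and 29.8% C, so that ND6 is the one member poor in C and rich in G.

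The 7 genes took between 0.591% and 2.93% of all counts of a library. Per kilobase of gene, ND4 stood highest and ND6 and ND4L lowest. The median over the 18 libraries, in TMM-scaled CPM per kilobase, was 5272 for ND4 and 4008 for ND3. It was 1977 for ND5, 1850 for ND2 and 1050 for ND1, and only 249 for ND4L and 115 for ND6. ND4 was first in 14 of 18 libraries and ND3 in the other 4. ND6 was last in 12 libraries and ND4L in 6, so the order of these 2 is not fixed. The low level of ND4L stands beside a high level of ND4 although both lie on 1 mRNA, and whether fragments over both genes were counted for either is not stated in the sources used here.

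The members also differed in how far they varied between libraries. From the lowest to the highest library, TMM CPM spanned 42.4-fold for ND4L, 22.8-fold for ND6 and 13.9-fold for ND5. The spans of ND2, ND4, ND3 and ND1 were narrower, at 7.98-fold, 7.14-fold, 6.54-fold and 6.04-fold.

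**Figure D1:**
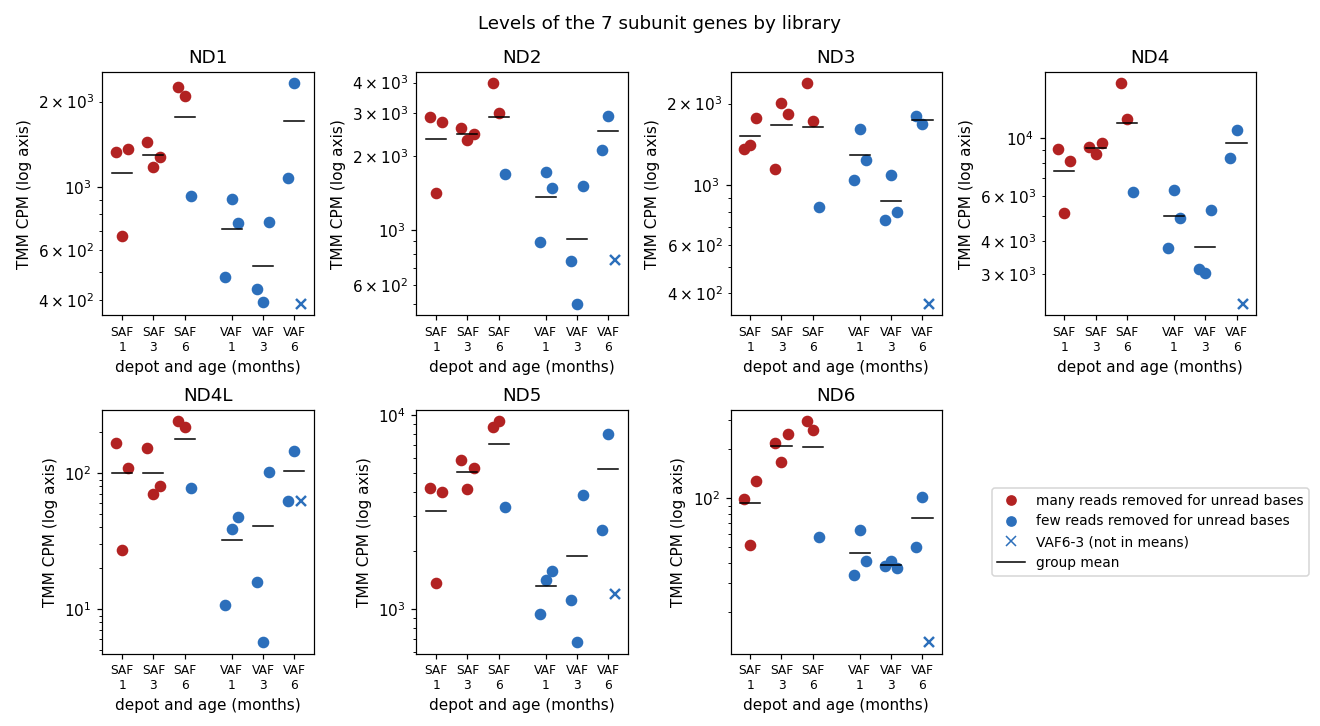
TMM-scaled CPM (log axis) of the 7 genes in each of the 18 libraries, by depot and age in months, with colours for the sequencing set and a line at the group mean. In the ND6 panel the 3 VAF libraries of 3 months sit between 37.4 and 41.3, below every SAF library, and SAF6-3 sits at 57.9, among the VAF libraries.

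ND6 encodes a hydrophobic membrane subunit at the joint of the membrane arm. In SAF, pigs of 1 month had 99.0, 51.5 and 128 TMM CPM, those of 3 months 217, 166 and 248, and those of 6 months 297, 263 and 57.9. In VAF the values were 33.7, 63.6 and 41.0, then 38.1, 41.3 and 37.4, then 50.2, 102 and, in VAF6-3, 13.0. SAF6-3 is thus far below the other SAF libraries of its age and within the range of VAF at 6 months, and it is also the one SAF library of the set with few reads removed. By group mean the order was SAF at 3 months, SAF at 6 months, SAF at 1 month, VAF at 6, 1 and 3 months, and each group overlapped the next in this order. The 3-month values, which chose the gene, do not overlap between the depots, as was the case for 15.9% of 14960 genes. The edgeR log2FC of SAF over VAF was 2.41 there, a 5.30-fold difference.

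ND4 and ND5 are antiporter-like subunits of the proton-pumping membrane arm. ND4 in SAF was 9107, 5174 and 8204 TMM CPM at 1 month, 9243, 8673 and 9583 at 3 months, and 16354, 11879 and 6182 at 6 months. In VAF it was 3763, 6327 and 4920, then 3138, 3024 and 5305, then 8410, 10757 and, in VAF6-3, 2291. VAF at 3 months had the lowest group mean and SAF at 6 months the highest, with SAF6-3 again the lowest of its group. ND5 in VAF at 3 months was 1113, 671 and 3846, so that VAF3-3 lay just below the SAF libraries of 3 months (5838, 4152 and 5313) and the other two far below. At 6 months VAF held 2556 and 7971 and VAF6-3 held 1192, while SAF held 8677, 9300 and 3356. At 1 month ND5 was 4200, 1368 and 3986 in SAF and 942, 1416 and 1569 in VAF, which overlap through SAF1-2.

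ND2, the third antiporter-like subunit, and ND1, which lies at the ubiquinone site, had the same lowest group. ND2 in VAF at 3 months was 750, 499 and 1510 TMM CPM against 2612, 2323 and 2470 in SAF. ND1 was 436, 392 and 752 against 1436, 1174 and 1272. At the other ages the depots overlapped in both genes, since over the remaining libraries ND1 lay between 672 and 2261 in SAF and, without VAF6-3, between 481 and 2328 in VAF.

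ND3 and ND4L are the smallest members. ND3, which carries a loop near the ubiquinone site, lay between 829 and 2384 TMM CPM in SAF over all ages and, without VAF6-3, between 742 and 1807 in VAF. At 3 months its depots did not overlap, with 1151, 2002 and 1837 in SAF and 742, 1091 and 797 in VAF. Non-overlap between depots at this age was found in 15.9% of all genes. ND4L was 15.8, 5.70 and 102 in VAF at 3 months and 152, 70.3 and 80.6 in SAF, so VAF3-3 was above 2 of the 3 SAF libraries while VAF3-2 was the lowest of all 18. At 1 month it was 166, 27.5 and 110 in SAF and 10.7, 39.3 and 47.4 in VAF.

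Levels were compared between depots with edgeR's quasi-likelihood test, with p adjusted over all genes tested (Benjamini-Hochberg). A gene was called at an adjusted p under 0.05 with a difference above 1.5-fold, the limits of the study. Log2FC is SAF over VAF, with its SE.

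At 3 months all 7 members had a positive log2FC, from 0.89 (ND3) to 2.41 (ND6), with a median of 1.29 where the median over all genes was close to 0. This is the contrast that chose the members. The calls are given for completeness, since the choice of members fixed them, and nothing is read from them. 1 of 7, ND6, was called beside 0.0401% of 14960 genes. DESeq2 called 4 beside 5.78%, and edgeR without VAF3-3 called 6 beside 17.6%. Of the 3 VAF libraries of this age, VAF3-1 and VAF3-2 held 1408 and 531 TMM CPM of 6 urothelium markers, against 3.44 in VAF3-3 and at most 5.06 in all other libraries. In these 3 libraries 4 of the 6 had counts throughout and KRT20 was at 0. In VAF3-1 and VAF3-2 the adipocyte markers summed to 5345 and 4970 TMM CPM, against 14852 in VAF3-3. The part of these cells in the members' levels was not tested.

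At 1 month all 7 members were again on the SAF side without passing the test. The log2FC was 1.65 ± 0.71 (SE) for ND4L, 1.29 ± 0.44 for ND5 and 1.02 ± 0.36 for ND6, with 3 libraries in each depot. For ND2, ND1, ND4 and ND3 it was 0.79, 0.67, 0.59 and 0.23. The edgeR adjusted p lay between 0.422 and 0.652, and 0 of 7 were called, as were 0 of 15064 genes (0%). ND5 and ND6 had an unadjusted p under 0.05, as did 1702 of all genes, and DESeq2 called 186 genes (1.18%) and no member. The depots overlapped in every member at this age.

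At 6 months ND6 had the highest log2FC of the members and did not pass. Its log2FC was 1.44 ± 0.71, a 2.72-fold difference (edgeR adjusted p = 0.703, 3 SAF and 2 VAF libraries). For ND4L it was 0.79, for ND5 0.44, and for ND4, ND2, ND1 and ND3 0.26, 0.20, 0.05 and -0.08. No member was called among 14962 genes (0 called, 0%, with 1016 at an unadjusted p under 0.05, none of them a member), and DESeq2 called 183 (1.12%) with no member. With SAF6-3 left out as well, chosen after seeing the data, the log2FC of ND6 was 1.89 ± 0.35 and its edgeR adjusted p 0.232. Without SAF6-3 the ND6 levels of the depots, 297 and 263 against 50.2 and 102, did not overlap. With SAF6-3 kept, 28.3% of all genes did not overlap between the depots at this age, and the share without it was not computed.

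Whether the depot difference changed from 1 to 6 months was tested as an interaction in a fit of all 17 libraries. For ND6 the difference at 1 month minus that at 6 months was -0.43 ± 0.71 on the log2 scale (edgeR adjusted p = 0.9999), and for the other 6 it lay between 0.31 and 0.85. The value for ND6 was -0.87 without SAF6-3 and -0.89 with VAF6-3 included, where ND3 (-0.13) and ND4 (-0.09) were negative too. It lay between -1.03 and -0.0043 with 1 library left out. 0 of 16664 genes passed (0%), 314 had an unadjusted p under 0.05, and DESeq2 passed 2 (0.00849%), no member among them.

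**Figure D2:**
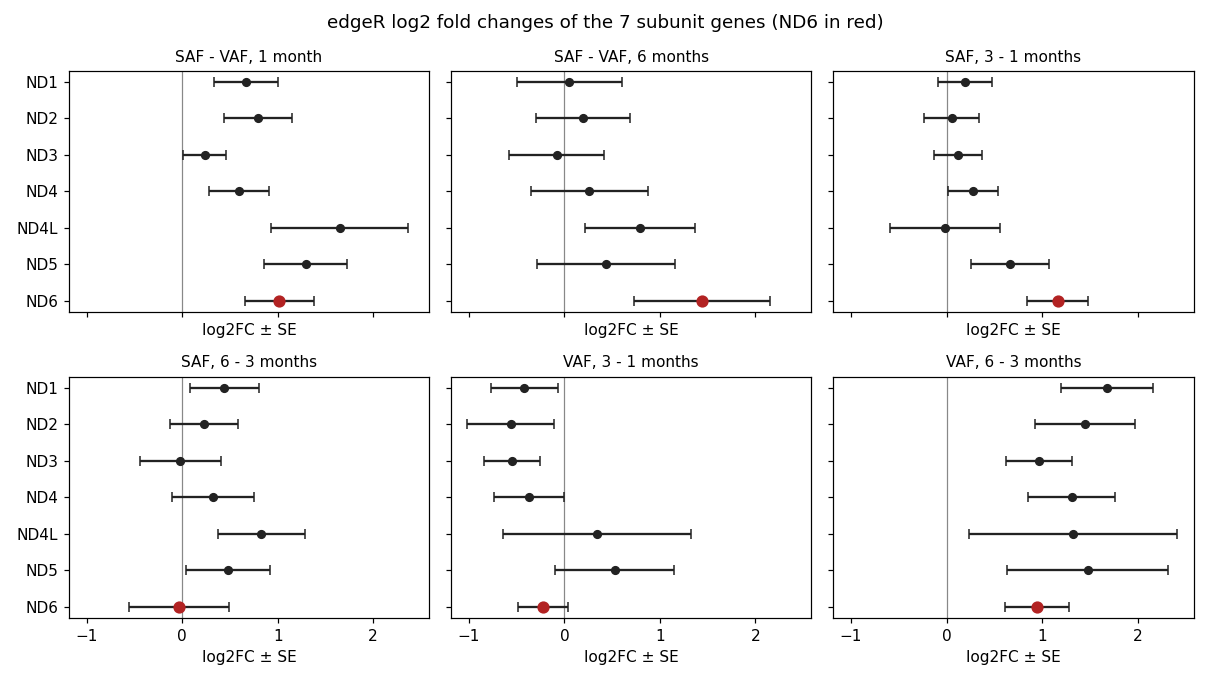
Log2FC with SE (bars) of the 7 genes from edgeR, for SAF over VAF at 1 and 6 months and for the older over the younger age within each depot, VAF6-3 left out. ND6 (red) is at 1.44 between depots at 6 months and at 1.16 from 1 to 3 months in SAF, where the other 6 lie between -0.02 and 0.66.

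Age was compared within each depot, as older over younger. In SAF from 1 to 3 months ND6 had a log2FC of 1.16 ± 0.32 (edgeR adjusted p = 0.186, 3 libraries each), a 2.24-fold difference in which the groups did not overlap. Non-overlap was found in 19.8% of all genes of this comparison. The other 6 lay between -0.02 (ND4L) and 0.66 (ND5). No member was called by edgeR, beside 15 of 14892 genes (0.101%). DESeq2 called ND6 alone of the members (log2FC 1.18, adjusted p = 0.0112) beside 551 of 15734 genes (3.5%). This comparison shares its 3 SAF libraries of 3 months with the contrast that chose ND6, so a high ND6 there is no independent result.

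From 3 to 6 months in SAF the members' log2FC lay between -0.03 (ND6) and 0.83 (ND4L), with edgeR adjusted p of 0.601 or more. 0 of 14689 genes were called (0%), with 1404 at an unadjusted p under 0.05 and no member among them. DESeq2 called 347 (2.2%), again without a member. These values rest on SAF6-3. Without it, from the 2 remaining libraries, the log2FC was 0.41 for ND6, 1.19 for ND4L, 0.82 for ND5, 0.75 for ND1, 0.62 for ND4, 0.50 for ND2 and 0.30 for ND3, again with no member called.

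In VAF from 1 to 3 months no member was called, with log2FC between -0.56 (ND2) and 0.53 (ND5) and -0.22 ± 0.26 for ND6. Without VAF3-3 all 7 were negative, at -1.58 for ND4L, -1.11 ± 0.35 for ND2, -0.76 ± 0.29 for ND1, -0.68 for ND4 and -0.53 for ND5, and none was called. 0 of 15275 genes were called by edgeR (0%), 1385 had an unadjusted p under 0.05 without any member, and DESeq2 called 622 (3.65%) and no member. The 3 VAF libraries of 3 months, which took part in the choice of the members, serve this comparison and the next, with the marker levels given above. Neither is therefore independent of that choice.

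From 3 to 6 months in VAF all 7 members had a positive log2FC, without passing the test. The log2FC was 1.68 ± 0.48 for ND1, 1.45 ± 0.52 for ND2 and 1.31 ± 0.45 for ND4. For ND5, ND4L, ND3 and ND6 it was 1.48, 1.32, 0.97 and 0.95. Under the other reading of the conflicting labels, which exchanges VAF6-1 and VAF3-3, it was 0.03 for ND3, 0.73 for ND4 and 0.69 for ND6, against 2.17 for ND4L and 2.04 for ND5. The edgeR adjusted p lay between 0.452 and 0.735, 0 of 15596 genes were called (0%), and 5 members were among the 1683 genes with an unadjusted p under 0.05. ND1, ND2, ND3, ND4 and ND6 did not overlap between the ages, as was the case for 26.7% of all genes. DESeq2 called ND1 and ND4 (adjusted p 0.0241 and 0.0247) beside 518 of 16264 genes (3.18%).

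This result turned on VAF3-3. With that library left out, 5 of 7 members (ND1, ND2, ND4, ND4L and ND5) were called beside 11% of 15328 genes, and log2FC reached 3.28 ± 0.57 for ND4L and 2.56 ± 0.59 for ND5. The libraries that then remained at 3 months are VAF3-1 and VAF3-2, those with the urothelium markers. ND3 (0.91) and ND6 (0.92) were close to their values in the full comparison and were not called. When any other single library was left out, no member was called.

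ND6 was then set against the other 6 members within each library, as ND6 counts per 1000 counts of the others summed. A ratio within a library does not depend on its depth or scaling. It was 5.19, 5.11 and 7.03 in SAF at 1 month, 10.6, 9.01 and 12.1 at 3 months, and 8.75, 9.34 and 4.43 at 6 months. In VAF it was 4.72, 5.29 and 4.09, then 6.15, 7.27 and 3.04, then 3.13, 3.94 and, in VAF6-3, 2.57. All SAF libraries of 3 months were above all other libraries but SAF6-2, and SAF6-3 was below every other SAF library.

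**Figure D3:**
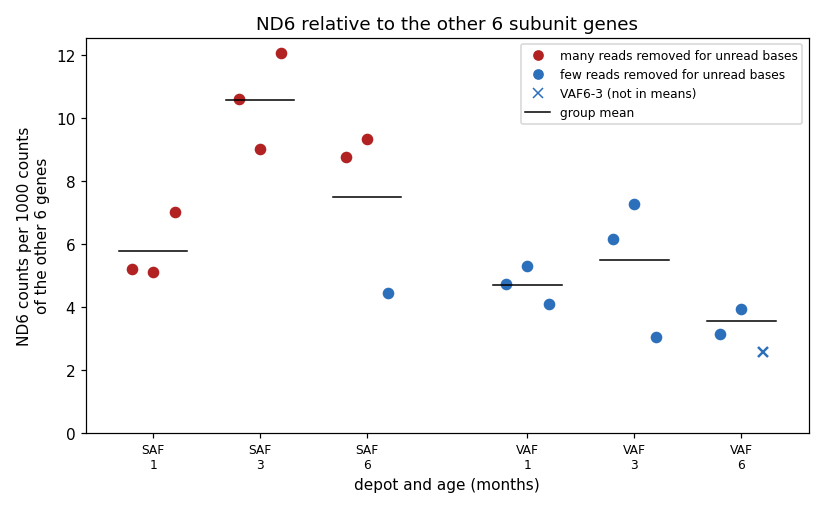
ND6 counts per 1000 counts of the other 6 members in each library, by depot and age in months, with colours for the sequencing set and lines at the group means (VAF6-3 is a cross and is not in the mean). The 8 libraries of the set with many reads removed lie between 5.11 and 12.1 and the 10 of the other set between 2.57 and 7.27.

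The depot difference of this ratio was tested at 1 and 6 months, the ages that did not choose the gene. On the log2 scale SAF exceeded VAF by 0.66, a 1.57-fold difference, in 6 SAF and 5 VAF libraries. The exact two-sided permutation test within age gave p = 0.06 (200 arrangements, smallest possible 0.005), and 0.09 after adjustment over the 3 tests of this kind. By age, the difference was 0.29 at 1 month, where the depots overlapped, and 1.02 at 6 months, where they did not. That non-overlap rests on 3 SAF and 2 VAF libraries. The lowest SAF ratio, 4.43 per 1000 in SAF6-3, was close to the highest VAF ratio, 3.94 in VAF6-2. In level, 28.3% of all genes did not overlap between the depots at 6 months.

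Over the same 11 libraries the ratio was also compared between the sequencing sets, 5 libraries with many reads removed against 6 with few. It was higher by 0.70 on the log2 scale (1.63-fold) in the set with many. The exact two-sided permutation test gave p = 0.00866 (462 arrangements), and 0.026 after adjustment over the 3 tests. It exchanged the 11 libraries over both ages, whereas the depot test did so within age, so the 2 p-values cannot be set against each other. The split into sets differs from the depot split in SAF6-3 alone. Whether one split separates the ratio better than the other was not tested. With ND5 as the only denominator, the gene that overlaps ND6, both differences were smaller: 0.25 between depots (exact permutation p = 0.41) and 0.37 between sets (exact permutation p = 0.279). With all 12 other mitochondrial protein genes as denominator the depot difference was 1.02 (exact permutation p = 0.015), so its size depends on which transcripts ND6 is set against.

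The other 6 members as a sum were 1.35-fold higher in SAF (0.43 on the log2 scale) over the same ages, with p = 0.22 in the exact two-sided permutation test (0.22 adjusted). The difference was 0.67 at 1 month and 0.19 at 6 months, and the depots overlapped at both ages.

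The members did not keep fixed proportions among themselves either. ND5 counts were between 0.614 and 5.40 times those of ND3, and ND4L counts were between 1.89 and 27.2 per 1000 of ND4. The lowest value of both ratios was in VAF3-2, and their spread within that group was wide: at 3 months in VAF the ND5 to ND3 ratio was 1.50, 0.614 and 4.83, and ND4L per 1000 of ND4 was 5.02, 1.89 and 19.2. These 2 ratios, which share no gene, went together over the 18 libraries. Pearson's r of their log2 values was 0.87 (permutation p = 1e-05, the smallest that 100000 permutations can give) and Spearman's rho 0.85 (permutation p = 2e-05). Without the 2 libraries farthest from the median of the ND5 to ND3 ratio r was 0.83. Within the sequencing sets r was 0.86 (8 libraries) and 0.87 (10 libraries). The libraries share depot, age and sequencing set, so the permutation p-values are given as a description only. The relation was chosen after the values were seen and is the only one of its kind computed. Levels of ND5 and ND4L were higher in VAF3-3 than in VAF3-1 and VAF3-2, and so were those of ND1, ND2 and ND4, while those of ND3 and ND6 were not.

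**Figure D4:**
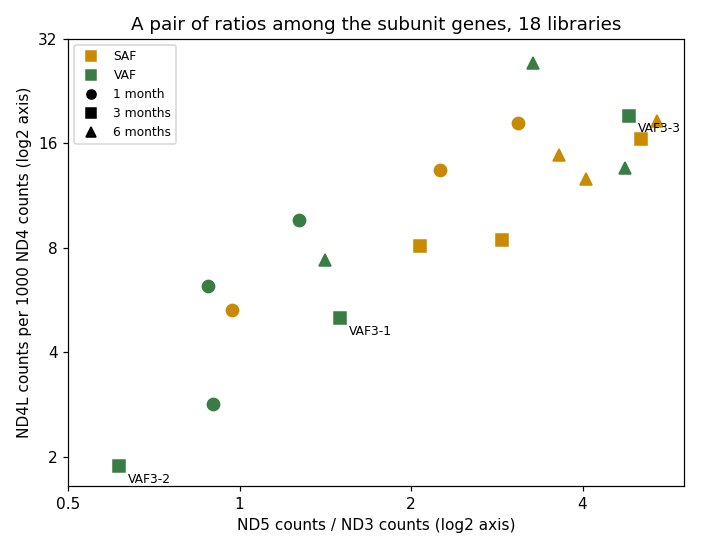
ND5 counts over ND3 counts (horizontal, log2 axis) against ND4L counts per 1000 ND4 counts (vertical, log2 axis) in the 18 libraries, by depot (colour) and age (marker). VAF3-2 is lowest on both axes, at 0.614 and 1.89, and VAF3-3 is at 4.83 and 19.2, toward the upper end of both.

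Likeness of pattern was measured as Pearson's r of log2(TMM CPM + 1) over the 18 libraries, among 14191 other genes with a mean of at least 1 CPM. It is given as a description, since the libraries share depot, age and sequencing set. ND4 was the gene most like ND6 (r = 0.89, 0.87 and 0.85 within the 2 sets). Among the members ND1 ranked 4 (r = 0.85), ND2 16, ND5 18, ND3 48 and ND4L 538 (r = 0.63). The 5 nuclear genes most like ND6 were NUBPL (r = 0.88), LOC106504896 (0.84), LRRC28 (0.83), DNAJB12 (0.83) and ELMOD3 (0.82). NUBPL is known as an assembly factor of complex I and DNAJB12 as a chaperone of the endoplasmic reticulum. For NUBPL r was 0.96 within the set with many reads removed and 0.66 within the set with few. For LOC106504896 it was 0.87 and 0.15. The genes most like ND4 were ND1 (r = 0.97), CYTB (0.97) and ND2 (0.96), and the nuclear ones were DNAJB12 (0.96), PMPCB (0.95), LRRC28 (0.92), CHPT1 (0.92) and ADIPOR2 (0.91). PMPCB is a subunit of the mitochondrial processing peptidase and ADIPOR2 an adiponectin receptor.

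The genes that act with the members were taken as lists. The mitochondrially encoded subunits of the other complexes (CYTB, COX1, COX2, COX3, ATP6 and ATP8) had 5 of 6 genes tested, with ATP8 below the filter. No gene of this list was called by edgeR in any of the 7 comparisons. Between depots at 3 months DESeq2 called 5 of them, all but ATP8, beside 5.78% of all genes. Without VAF3-3, edgeR called 4 (ATP6, COX1, COX2 and CYTB), beside 17.6% of all genes. The VAF libraries of 3 months left in that fit, VAF3-1 and VAF3-2, are those with the urothelium markers. Between depots the median log2FC of this list was 0.26, 0.91 and -0.16 in pigs of 1, 3 and 6 months, where the members had 0.79, 1.29 and 0.26. Without SAF6-3 the 6-month median of the list was 0.16. From 3 to 6 months in VAF it was 1.09 (members 1.32). There DESeq2 called 4 of the 6 (ATP6, COX1, COX2 and COX3), beside 3.18% of all genes. In that comparison edgeR without VAF3-3 called CYTB, beside 11% of all genes. The median of all genes lay between -0.04 and 0.02 in the 7 comparisons.

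Among the nuclear subunits, all 7 core subunits, which hold the flavin and the iron-sulfur clusters, and all 30 accessory subunits listed were tested. No subunit was called by edgeR in any comparison. With VAF3-3 left out, edgeR called NDUFA9 between depots at 3 months, beside 17.6% of all genes. In VAF that fit called NDUFA2 and NDUFA3 from 1 to 3 months, beside 1013 of 15719 genes. From 3 to 6 months it called NDUFS1 and NDUFA9, beside 11% of all genes. At 6 months the log2FC was negative, toward VAF, in all 7 core and all 30 accessory subunits, with medians of -0.64 and -0.58. Of the members 6 of 7 were positive, but ND1, ND2, ND4 and ND5 turned negative in some fits with 1 library left out. Of the 5 tested mitochondrially encoded subunits of the other complexes, 1 was positive. Without SAF6-3 the medians of the nuclear core and accessory subunits were -0.26 and -0.28. That library had a summed level of the core subunits of 415 TMM CPM, below both other SAF libraries of its age (868 in the higher). At 1 month the medians were -0.12 and -0.15 and at 3 months 0.31 and 0.06. In SAF from 1 to 3 months all 7 core and all 30 accessory subunits were positive (medians 0.49 and 0.45, members 0.19). There DESeq2 called 3 core subunits (NDUFS7, NDUFV1 and NDUFV2) and 6 accessory subunits, beside 3.5% of all genes. The difference between nuclear and mitochondrial subunits was not tested.

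Of the 19 assembly factors listed, which build the complex without staying in it, 16 were tested and none was called by edgeR. Their median log2FC of SAF over VAF was 0.00, 0.31 and -0.24 at 1, 3 and 6 months, and -0.04 at 6 months without SAF6-3. With VAF3-3 left out, edgeR called NDUFAF8, NUBPL and TIMMDC1 between depots at 3 months, beside 17.6% of all genes. Of these, 2 were higher in SAF and 1 in VAF. In VAF that fit called NDUFAF8 from 1 to 3 months, beside 1013 of 15719 genes, and NDUFAF1 from 3 to 6 months, beside 11% of all genes. Of 34 genes of mitochondrial transcription and RNA handling, such as TFAM, POLRMT, LRPPRC and GRSF1, 30 or 31 were tested. None was called by edgeR, and the medians were 0.02, 0.15 and 0.03. With VAF3-3 left out, edgeR called PPARGC1A of this list, higher in VAF of 3 months in each comparison that uses that group. The shares of all genes called in these fits are given above. DESeq2 called none of either list in the depot comparisons.

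ND6 is a minus-strand gene, and nuclear genes that lie under a gene of the other strand were listed as a description. Of 254 genes with at least 50% of their exon bases under such a gene, 138 to 151 were tested in the depot comparisons. Their median log2FC of SAF over VAF was 0.07, 0.07 and 0.06 at 1, 3 and 6 months, and none was called by edgeR. The medians of all genes were within 0.01 of 0. Only 3.22% of ND6 lies under ND5, so the listed genes are unlike ND6 and their medians do not bear on its counts. The library kit named in the study does not, in its usual form, mark strand, and the strand setting of the counting is not stated in the sources used here. Counts assigned to ND6 can therefore include RNA of the opposite strand, and both strands cannot be told apart in these data.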

How the data were processed

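Total RNA was extracted from SAF and VAF, made into libraries with a TruSeq RNA kit and sequenced on an Illumina instrument. How mRNA was separated from other RNA is not described in the study, and its part in the level of ND6 was not tested. The authors aligned the paired reads with HISAT2 2.0.4 (submitters' processing notes) to Sscrofa11.1 and counted them per gene with HTSeq, and the deposited values are these counts, without normalization. The overlap mode and strand setting of the counting are not given in the sources used here. Totals ran from 16404239 to 22857354 counts, so the lowest member value (114 counts) is well above 0.

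Groups followed depot and age. Pairs of groups were fitted with edgeR 4.0.16 in R 4.3.3 (TMM, filterByExpr, quasi-likelihood test, no block, VAF6-3 left out as in the study). SE is the absolute log2FC over the square root of F. DESeq2 1.42.0, other size factors, no filter, 1 fit of all groups, the replicate number as a block, the other reading of the labels and leaving out each library were alternatives. Single values were tested by exact permutation over libraries (Python 3.11.15). The fits were tested on simulated data. The sequencing sets come from the study's filtering statistics.

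The members, lists and tests were chosen with earlier results of these data known. The text names all 7 members, some of the list genes called in an alternative fit and the 5 nuclear genes most like ND6 and ND4. Lists of skeletal muscle, kidney tubule, urothelium and red blood cell genes, and of adipocyte genes, served as markers.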

Additional observations from a re-analysis of the deposited data

How the results depend on the processing

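Depth limits little here, since the lowest member value rests on 114 counts, whereas the 2 or 3 libraries per group limit every fold change and the label conflict those that use VAF at 3 or 6 months. For the ND6 ratio, the depot difference (0.66) was 1.02 over 12 mitochondrial genes and 0.73 with VAF6-3 included, both past the threshold, and lay between 0.56 and 0.83 with 1 library left out, past it without VAF1-2 (exact permutation p = 0.04), VAF6-1 or VAF6-2 (0.0375 each). The set difference (0.70) was 0.37 over ND5, no longer past it, and passed with any library left out. The replicate number as a block (sign flips in 5 pairs) gave 0.72 with exact permutation p = 0.125, the smallest possible being 0.0625. Whether the numbers pair the samples is not settled: deviations of same-numbered libraries correlated between -0.22 and 0.51, and no label ties a number to a pig. Of 7 members at 3 months between depots (1 called), 4 were called by DESeq2, 0 with the replicate block, and between 0 and 6 with 1 library left out, 6 without VAF3-3 and 0 without any other. With the replicate block 2 were called at 6 months (ND6, log2FC 1.97, edgeR adjusted p = 0.000413, and ND4L) beside 766 of 14962 genes, 1 in SAF from 1 to 3 months beside 149 of 14892, and 5 in VAF from 3 to 6 months beside 2290 of 15596. Ages hold different pigs, so a number pairs no pig between them. DESeq2 called 1 in SAF from 1 to 3 months and 2 in VAF from 3 to 6 months, where leaving out 1 library gave between 0 and 5. The cause of these changes was not tested.

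Fold changes of single members were computed again 581 times and had the same sign in 546. In the other direction, ND3 between depots at 6 months was 0.22 with the replicate block, 0.37 with VAF6-3 included, 0.40 under the other reading of the labels and 0.24 with SAF6-3 also left out. Leaving out SAF6-3 in SAF from 3 to 6 months gave 0.30 for ND3 and 0.41 for ND6. ND4L was 0.22 with the block in SAF from 1 to 3 months, and -0.21 with the block and -0.22 under the other reading in VAF from 1 to 3 months. With 1 library left out, log2FC between depots at 6 months lay between -0.40 and 0.72 for ND1, -0.10 and 0.47 for ND2, -0.44 and 0.24 for ND3, -0.076 and 0.56 for ND4, and -0.16 and 1.49 for ND5. In SAF from 1 to 3 months it lay between -0.073 and 0.35 for ND1, -0.21 and 0.23 for ND2, -0.024 and 0.34 for ND3, and -0.47 and 0.54 for ND4L. In SAF from 3 to 6 months it lay between -0.066 and 0.50 for ND2, -0.38 and 0.30 for ND3, -0.016 and 0.62 for ND4, and -0.38 and 0.41 for ND6. In VAF from 1 to 3 months it lay between -1.58 and 0.86 for ND4L, -0.53 and 0.92 for ND5, and -0.42 and 0.076 for ND6. A group left with 1 library was assumed to vary like the others. Leaving out SAF6-3 with VAF6-3 was chosen after seeing the data.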

Other observations

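Levels of markers of other tissues were also measured in the libraries of these comparisons. The 6 kidney tubule markers summed to between 0.209 and 2.59 TMM CPM in 17 libraries and to 22.5 in VAF3-3. The 8 skeletal muscle markers summed to between 0.874 and 82.5, highest in a SAF library of 1 month, and the 3 red blood cell genes found of 5 summed to between 143 and 666. None of these 3 lists held a gene called by edgeR in any of the 7 comparisons. DESeq2 called TNNT3 between depots at 1 month, beside 1.18% of all genes, and CKM at 3 months, beside 5.78%. In SAF from 1 to 3 months it called TNNT3 and ALAS2, beside 3.5%. In VAF it called ALAS2 and HBB from 1 to 3 months, beside 3.65%, and SLC34A1 from 3 to 6 months, beside 3.18%. With VAF3-3 left out, edgeR called CKM of the muscle list, beside 17.6% and 11% of all genes. It was higher in VAF of 3 months than in SAF of 3 months and VAF of 6 months. No gene of the list of transcripts without a poly(A) tail was tested, so that list gave no value.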
